A study of Homo sapiens with 6 samples.

Results

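The BTG/TOB family of antiproliferative proteins and the deadenylases they bind are described here in A549 cells, a human lung adenocarcinoma line, after siRNA against the ribosomal protein gene RPS19. The 7 genes were taken by symbol on the reference chromosomes, out of 63152 genes counted: BTG1, BTG2 and BTG3, TOB1 and TOB2, and CNOT7 and CNOT8. All 7 passed the filter on low counts, as did 17171 genes in all. One group (siRPS19) received a siGENOME pool against RPS19 and the other (siOTP) an ON-TARGETplus non-targeting control, both at 10 nM by reverse transfection with harvest at 72 hours. Both groups are the same line and met the same transfection reagent and medium change. The siRNA product line differed along with the target, so the effects of these cannot be told apart. Each group had 3 biological replicates by label, and libraries of the same number in both groups carry the same date in the sample descriptions, which do not say what was done on it.

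BTG and TOB proteins share an amino-terminal domain that binds CNOT7 and CNOT8, the CAF1-type deadenylases of the CCR4-NOT complex. The complex shortens the poly(A) tails of mRNAs, and a BTG or TOB protein can bring it to mRNAs by also touching the cytoplasmic poly(A)-binding protein. Forced expression of these proteins slows entry into S phase in many cell types. The libraries measure mRNA only, so protein and deadenylase activity were not analysed here.

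Counts on genes totalled 20814110 to 23889372 per library. RPS19 had 30731, 27124 and 30387 counts in siOTP and 1159, 830 and 1073 in siRPS19, in the direction of the labels. The fit by edgeR's quasi-likelihood method put it 35.3-fold lower (adjusted p = 4.98e-12). The share of reads outside genes ran from 3.39% to 3.85% in the siOTP libraries and from 5.13% to 6.36% after siRPS19, and its part in the results was not tested. The 6 epithelial marker genes summed to 5222 to 5647 CPM in siOTP and 3394 to 3786 in siRPS19. CPM are counts scaled to library size corrected by edgeR's TMM factors. Of the 6 genes, 4 fell, while KRT19 rose 6.86-fold and CDH1 1.63-fold. Of 7 alveolar type 2 markers, SFTPA1 and NKX2-1 had no count in any library, so the alveolar lineage was only partly marked. The alveolar sum was 59.9 to 64.6 CPM in siOTP and 164 to 180.5 in siRPS19. Most of it was ABCA3, 2.77-fold higher, with means of 60.8 and 168 CPM. NAPSA was 3.04-fold higher, from 1 CPM in siOTP to 3.04 in siRPS19. SFTPB, SFTPC and SFTPD had at most 15, 5 and 6 counts in any library. Leukocyte and endothelial markers summed to at most 2.98 and 0.347 CPM in any library, and fibroblast markers to 32.6 to 40.3 CPM in siOTP and 17.8 to 22.7 in siRPS19, most of it COL1A1. COL1A1 fell 2.22-fold, and PDGFRA rose 6.14-fold from 0.549 CPM. The part of these marker levels in the results was not tested.

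The sequences before the annotated starts of the 3 BTG genes, which rose, and of TOB2, which fell, are shown so that their promoters can be set side by side. They are the 250 bases before the start from RefSeq on GRCh38.p14, whereas the counts were made on hg19. Capitals mark matches on either strand to the motifs searched. Among them were the CCAAT box, the GC box GGGCGG and the TATA box TATAAA, the forkhead core TGTTTAC and the cAMP element TGACGTCA. The E2F forms TTTCCCGC and TTTGGCGC and the E-box CACGTG were searched too, and 1 further motif is not reported here.
BTG2, chr1:203305269-203305518, plus strand: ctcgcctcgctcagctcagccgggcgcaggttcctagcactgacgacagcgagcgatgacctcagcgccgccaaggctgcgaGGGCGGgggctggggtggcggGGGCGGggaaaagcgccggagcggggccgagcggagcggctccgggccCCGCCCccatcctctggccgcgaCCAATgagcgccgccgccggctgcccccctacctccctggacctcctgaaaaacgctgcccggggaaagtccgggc
BTG1, chr12:92145847-92146096, minus strand: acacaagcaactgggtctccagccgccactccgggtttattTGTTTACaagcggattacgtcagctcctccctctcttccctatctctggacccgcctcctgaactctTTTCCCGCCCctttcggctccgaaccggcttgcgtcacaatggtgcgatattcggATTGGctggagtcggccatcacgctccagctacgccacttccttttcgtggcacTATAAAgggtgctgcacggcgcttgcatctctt
BTG3, chr21:17612902-17613151, minus strand: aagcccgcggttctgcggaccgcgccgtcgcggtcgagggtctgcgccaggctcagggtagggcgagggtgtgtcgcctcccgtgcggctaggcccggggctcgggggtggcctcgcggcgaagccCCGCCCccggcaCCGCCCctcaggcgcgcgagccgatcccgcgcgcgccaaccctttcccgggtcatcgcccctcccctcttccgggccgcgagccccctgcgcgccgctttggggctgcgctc
TOB2, chr22:41446802-41447051, minus strand: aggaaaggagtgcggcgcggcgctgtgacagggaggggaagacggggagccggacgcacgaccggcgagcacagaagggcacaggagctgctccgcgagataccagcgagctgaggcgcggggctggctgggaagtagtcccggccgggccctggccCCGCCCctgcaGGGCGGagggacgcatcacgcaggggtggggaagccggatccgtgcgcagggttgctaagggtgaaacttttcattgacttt

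Shares are of all 35116 RefSeq windows, which run from 250 bases before to 50 after a start. For 6 members 9 such windows were searched. Chromosome 8, where CNOT7 lies, was left out of the member windows, so CNOT7 was not covered. A motif not marked says only that its letters are not in the window. BTG1 had the TATA box at position -33, counted from the start, and 11.5% of all windows hold one. It also had the forkhead core at -209 (3.42% of windows). The first E2F form stood at -142 (1.63% of windows) and overlaps a GC box on the opposite strand. BTG1 had a CCAAT box at -87 as well, on the opposite strand. BTG2 had 3 GC boxes and a CCAAT box at -76, motifs that 45% and 34.6% of windows hold. A window of TOB1, which was not called, is not shown and held 3 GC boxes and a CCAAT box (at -186) too. In the BTG3 and TOB2 windows, of a gene that rose and one that fell, the GC box was the motif found. The BTG2 window was 73.3% G or C and that of BTG1 56%, against a median of 58.7% over all windows. The motifs were chosen with these sequences in view.

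BTG2 rose far more than any other member, BTG1 and BTG3 rose, TOB2, CNOT7 and CNOT8 fell, and TOB1 did not pass the test. By edgeR's quasi-likelihood test with Benjamini-Hochberg adjustment over all 17171 genes, 3 of the 7 members were higher and 3 lower. Over all genes, 78.3% were called, 39.5% higher and 38.9% lower, so a share of 6 in 7 called is near the background and the results lie in the sizes and directions. The groups did not overlap for 6 of 7 members and for 79.7% of all genes. CPM values are normalised with edgeR's TMM factors, and the median log2 fold change over all genes was 0.02. Scaling by library totals instead moved the median gene up by 0.29 (log2), and 65.8% of calls were then higher, against 50.4% with TMM. Fewer cells of one state and less RNA per cell cannot be told apart in these bulk libraries. The plot of levels by library shows all values.

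**Figure D1:**
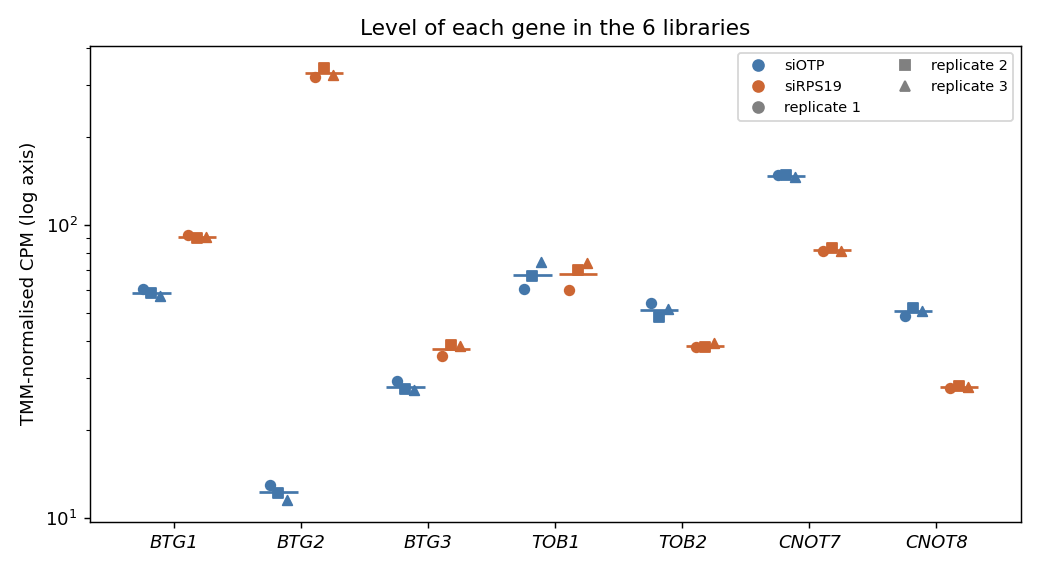
TMM-normalised CPM (log axis) of each gene in the 6 libraries, siOTP in blue and siRPS19 in orange, with a symbol for each replicate number and a line at the group mean. BTG2 moves from 11.5 to 12.95 CPM up to 318 to 344 CPM, while the TOB1 groups overlap.

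BTG2 (ENSG00000159388, chromosome 1, 203274619 to 203278730, plus strand, hg19) encodes an antiproliferative co-regulator that binds the CAF1 deadenylases. Its level was 12.95, 12.2 and 11.5 CPM in siOTP replicates 1 to 3, and 318.2, 343.9 and 325.3 CPM in siRPS19. The raw counts were 270, 240 and 223 against 8271, 7931 and 7861, and every siRPS19 library lay far above every siOTP library. BTG2 rose 26.9-fold (95% interval 24.9 to 29.1; log2 4.75 ± 0.05 SE; edgeR adjusted p = 9.23e-24), the only member to rise at least 2-fold, as 18.5% of all genes did. Of all tested genes, 122, or 0.711%, were called higher with a fold change at least as large, BTG2 included. By replicate number the ratio was 24.6, 28.3 and 28.3. In hg19 the authors' table places no other gene over BTG2. In the authors' deposited table its RPKM, a level per transcript length and depth, was 4.01 in siOTP and 131.03 in siRPS19.

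BTG1 (ENSG00000133639, chromosome 12, 92536286 to 92539673, minus strand), the closest relative of BTG2 and first found at a translocation in B-cell leukaemia, rose by much less. It had 60.15, 58.4 and 57.1 CPM in siOTP and 92.25, 90.4 and 90.6 CPM in siRPS19. The groups lay apart with little spread inside either. BTG1 rose 1.56-fold (95% interval 1.46 to 1.66; log2 0.64 ± 0.04 SE; edgeR adjusted p = 2.09e-11). Of all tested genes, 73.2% had a lower log2 fold change than BTG1. BTG1 overlaps an antisense gene (ENSG00000245904) on the opposite strand and C12orf79 on the same strand, which had at most 26 and 13 counts in any library.

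BTG3 (ENSG00000154640, chromosome 21, 18965971 to 18985265, minus strand), whose protein can bind the transcription factor E2F1 and the kinase CHK1, rose least of the members called higher. Its level was 29.2, 27.6 and 27.4 CPM in siOTP and 35.5, 39.0 and 38.6 CPM in siRPS19. The lowest siRPS19 library, replicate 1, still lay above the highest siOTP library. The rise was 1.34-fold (95% interval 1.24 to 1.46, adjusted p = 1.26e-06 in edgeR's test). By replicate number the ratio was 1.22, 1.42 and 1.41.

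**Figure D2:**
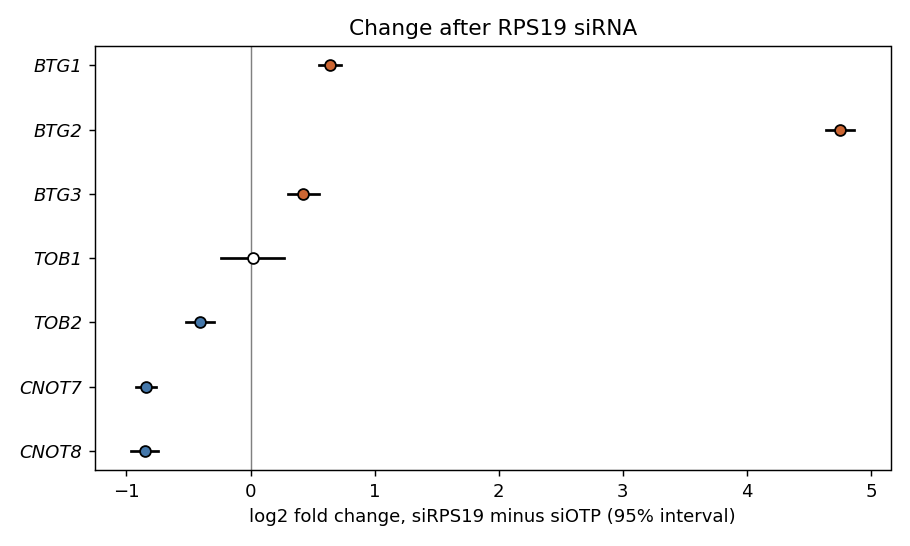
Log2 fold change (siRPS19 minus siOTP) of each gene with its 95% interval from edgeR's quasi-likelihood fit. Orange points were called higher, blue points lower, and the open point was not called. BTG2 stands at 4.75, and the other genes lie between -0.85 and 0.64.

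The TOB genes, whose longer proteins carry motifs for binding the poly(A)-binding protein, did not follow BTG2. TOB1 (ENSG00000141232, chromosome 17, 48939584 to 48945339, minus strand) had 60.2, 66.8 and 74.7 CPM in siOTP replicates 1 to 3 and 59.8, 70.0 and 74.3 CPM in siRPS19. The groups overlapped along their whole range, and libraries of the same replicate number lay close together. The log2 fold change was 0.02 ± 0.11 (SE; 95% interval -0.24 to 0.27), with adjusted p = 0.892 in edgeR's test. With the replicate number as a block, the SE was 0.04 and the interval -0.07 to 0.11 (adjusted p = 0.733). With library totals TOB1 was at 0.30 and passed (adjusted p = 0.0449). TOB1-AS1 overlaps TOB1 on the opposite strand and had 10 to 29 counts per library, against at least 1255 on TOB1.

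TOB2 (ENSG00000183864, chromosome 22, 41829496 to 41843027, minus strand) fell. It had 54.1, 48.3 and 51.6 CPM in siOTP and 38.3, 38.4 and 39.4 CPM in siRPS19. All 3 siRPS19 libraries lay within a narrow band below the siOTP libraries. The fall was 1.33-fold (log2 fold change -0.41 ± 0.05 SE, adjusted p = 5.26e-07 in edgeR's test). With library totals it shrank to a log2 fold change of -0.12 (adjusted p = 0.0459), so the size of the fall depends on the scaling.

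**Figure D3:**
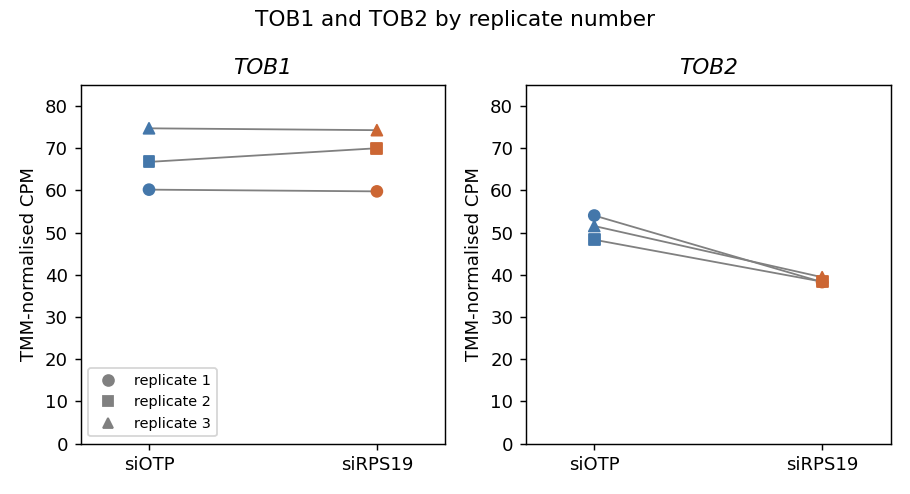
TMM-normalised CPM of TOB1 (left) and TOB2 (right), with a line joining the siOTP and siRPS19 libraries of the same replicate number. The TOB1 lines are nearly level at 59.8 to 74.7 CPM, and all 3 TOB2 lines go down.

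CNOT7 and CNOT8 encode deadenylases that take the same place in the complex, one at a time, and both fell by nearly the same factor. CNOT7 (ENSG00000198791, chromosome 8, 17086737 to 17104387, minus strand) had 147.8, 147.8 and 146.0 CPM in siOTP and 81.2, 83.5 and 81.1 CPM in siRPS19. CNOT7 fell 1.80-fold (log2 -0.85 ± 0.04 SE; edgeR adjusted p = 3.37e-14). CNOT8 (ENSG00000155508, chromosome 5, 154237113 to 154256353, plus strand) had 49.0, 51.9 and 50.9 CPM in siOTP and 27.8, 28.3 and 27.9 CPM in siRPS19. The spread within each group was small for both genes. CNOT8 fell 1.81-fold (log2 fold change -0.85 ± 0.05 SE, adjusted p = 3.76e-12 in edgeR's test). Of all tested genes, 16.0% and 15.7% had a lower log2 fold change than CNOT7 and CNOT8. With library totals the falls were smaller, at -0.56 and -0.57. CNOT7 overlaps VPS37A by 308 bases on the opposite strand, and CNOT8 overlaps FAXDC2 by 1700 bases; reads in such stretches cannot be assigned to a strand here.

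Ratios within a library need no scaling between libraries. On the log2 scale and per base of transcript length, CNOT8 to CNOT7 had a mean of -0.78 in both groups (SD 0.04 in siOTP and 0.01 after siRPS19, n = 3 each), and the groups differed by -0.0083 (exact two-sided permutation p = 0.9). BTG2 to BTG1 went from -2.33 ± 0.05 to 1.78 ± 0.07 (SD, n = 3 each, exact permutation p = 0.1). As a plain ratio this is 0.198 in siOTP and 3.44 in siRPS19, given the authors' transcript lengths. TOB1 to TOB2 went from 1.24 ± 0.20 to 1.66 ± 0.14 (SD, n = 3 each; exact permutation p = 0.1). For these 3 ratios 0.1 is the smallest p that 3 libraries against 3 allow, and the Benjamini-Hochberg adjusted values were 0.15, 0.15 and 0.9. The BTG2 and TOB1 ratios thus differed between groups without overlap, and the CNOT ratio differed by less than the spread between replicates.

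Levels of different genes are compared here as TMM CPM per kilobase of the authors' transcript length. In siOTP the order was TOB1 (26.7 ± 2.89), BTG1 (22.3 ± 0.578), CNOT7 (22.04 ± 0.156), CNOT8 (12.9 ± 0.369), BTG3 (12.2 ± 0.438), TOB2 (11.2 ± 0.630) and BTG2 (4.43 ± 0.264; SD, n = 3 each). BTG1 and CNOT7 overlapped between libraries, as did CNOT8 and BTG3, and the other neighbours did not. BTG2, last among the 7 in siOTP, was first in siRPS19 at 119 ± 4.83 (SD, n = 3). It was followed there by BTG1 (34.7 ± 0.391), TOB1 (27.0 ± 2.96), BTG3 (16.4 ± 0.823), CNOT7 (12.3 ± 0.205), TOB2 (8.48 ± 0.141) and CNOT8 (7.12 ± 0.0630; SD, n = 3 each), with no overlap between neighbours. How the authors set these lengths is not given here, and CNOT7 had the longest, at 6679 bases. Without division by length, the order in siOTP was CNOT7, TOB1, BTG1, TOB2, CNOT8, BTG3 and BTG2. In siRPS19 it was then BTG2, BTG1, CNOT7, TOB1, TOB2, BTG3 and CNOT8. Only BTG2 kept its place in both groups, so the order of the others depends on the lengths.

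The make-up of BTG/TOB mRNA differed between the groups. Per kilobase, BTG2 made up 6.18%, 5.83% and 5.30% of the 5 BTG and TOB genes in siOTP replicates 1 to 3 and 58.3%, 58.8% and 56.9% in siRPS19. TOB1 held the largest share in siOTP, at 34.7% ± 3.12 (SD, n = 3), against 13.1% ± 1.12 (SD, n = 3) after siRPS19. The sum over the 5 genes was 76.8 ± 1.69 CPM per kilobase in siOTP and 206 ± 7.21 in siRPS19, and without BTG2 it was 72.4 ± 1.91 and 86.55 ± 3.47 (SD, n = 3 each). CNOT7 and CNOT8 together went the other way, from 34.9 ± 0.366 to 19.4 ± 0.269. The 5 genes together thus stood at 2.20 ± 0.0601 times the deadenylase pair in siOTP, against 10.6 ± 0.277 times after siRPS19 (SD, n = 3). These sums and their ratios are descriptions that depend on the transcript lengths used, and they were not tested.

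**Figure D4:**
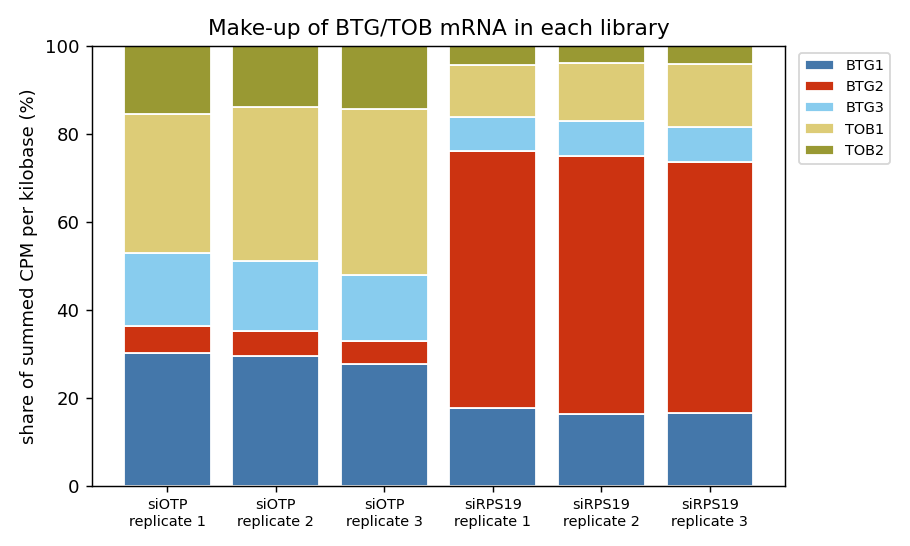
Share of each gene in the summed CPM per kilobase of BTG1, BTG2, BTG3, TOB1 and TOB2, with a bar for each library. BTG2 takes 5.30% to 6.18% of the bar in siOTP and 56.9% to 58.8% in siRPS19.

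The other subunits of the CCR4-NOT complex were mostly lower too. Of 10 genes listed and tested, 9 fell and none rose, with a median log2 fold change of -0.59, beside 0.02 over all genes and 38.9% of all genes called lower. The falls were 2.00-fold for CNOT9 (RQCD1 in the files), 1.98-fold for CNOT6, a catalytic subunit of the CCR4 type, and 1.64-fold for CNOT10. They were 1.55-fold for CNOT2 and 1.46-fold for CNOT3, which form the NOT module, and 1.38-fold for the scaffold gene CNOT1. TNKS1BP1 fell 1.55-fold, CNOT6L, the paralog of CNOT6, 1.32-fold and the ubiquitin ligase gene CNOT4 1.301-fold. CNOT11 was at a log2 fold change of -0.02 (adjusted p = 0.652 in edgeR's test). With library totals, 7 fell and 1 rose: CNOT4 and CNOT6L no longer passed (adjusted p = 0.192 and 0.138), and CNOT11 was at 0.27 (adjusted p = 1.03e-05). Of the 10 genes, 8 overlap another annotated gene.

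Genes that act on the poly(A) tail gave a mixed picture, and decapping genes a lower one. Among 14 poly(A) genes there were 8 falls and 2 rises (median log2 fold change -0.17). Over all genes, 38.9% were called lower and 39.5% higher. PABPC4 and PABPC1, which encode cytoplasmic poly(A)-binding proteins, fell 2.04-fold and 1.59-fold, the nuclease gene PARN 1.37-fold and PAIP1 by 0.38 on the log2 scale. The 2 rises, also outside the naming rule and picked after their values were seen, were PABPC1L (2.09-fold) and PAIP2 (1.22-fold). With library totals, 4 of the 14 fell and 6 rose, and PAIP1 no longer passed (adjusted p = 0.0652). Decapping and 5′ decay gave 13 falls and 2 rises among 16 genes (median -0.67), or 11 and 3 under library totals. PATL1, a bridge between deadenylation and decapping, fell 2.17-fold, the helicase gene DDX6 1.92-fold, and LSM3 and LSM5 of the LSM ring 2.36-fold and 2.19-fold. Outside the naming rule and chosen after their values were seen, the 2 that rose were the decapping activator gene DCP1B (2.75-fold) and XRN1 (1.49-fold), which encodes the 5′ exonuclease.

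Genes for RNA-binding proteins and adaptors that bring CCR4-NOT to mRNAs went both ways. Of 23 listed, 22 were tested, of which 12 rose and 6 fell, with a median log2 fold change of 0.18. All tested genes went both ways too, with 39.5% called higher and 38.9% lower. ZFP36L1, which encodes a binder of AU-rich elements, rose 2.11-fold. RC3H2 of the roquin family fell 2.22-fold, PUM2 of the pumilio family 1.77-fold and the cap-binding gene EIF4E2 1.77-fold. With library totals, 16 rose and 4 fell. These lists, like the 7 genes, were chosen with earlier results known, and their counts are descriptions.

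**Figure D5:**
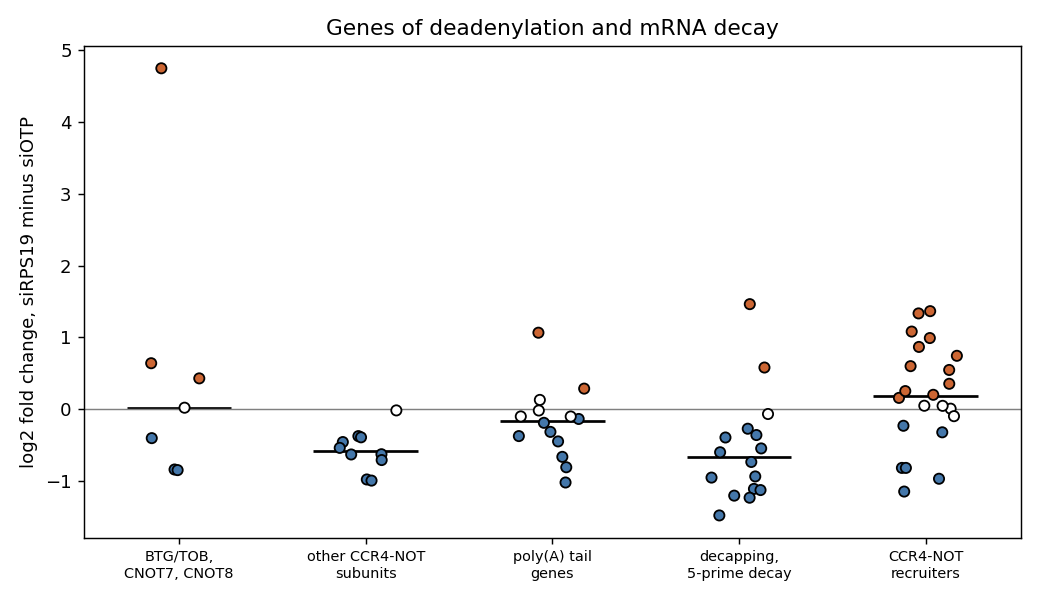
Log2 fold change (siRPS19 minus siOTP) of single genes in 5 lists, with a line at each list's median. Orange points were called higher, blue lower, and open points were not called. Of the other CCR4-NOT subunits 9 of 10 are blue, while the recruiters spread on both sides of 0.

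With TMM factors, genes whose proteins bind BTG or TOB proteins were mostly lower. Of 15 tested, 12 fell and 2 rose (median log2 fold change -0.40), beside 38.9% of all genes called lower and 39.5% higher. With library totals, 7 fell and 4 rose, so the count of falls depends on the scaling. E2F1 and CHEK1, whose products bind the BTG3 protein, fell 33.3-fold and 6.81-fold. PRMT1, the arginine methyltransferase that binds BTG1 and BTG2, fell 2.55-fold, and CDK4 1.58-fold. Among cell cycle genes tied to BTG/TOB action, 6 of 9 tested fell and 1 rose, beside 38.9% of all genes called lower. With library totals, 5 of these fell and 2 rose. The falls were 44.7-fold for FOXM1, 6.48-fold for CDK2, 2.13-fold for MYC and 1.80-fold for CDK6.

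Some other genes that the naming rule gives also rose by large factors, and they are not the full set. CDKN1A, which encodes an inhibitor of cyclin-dependent kinases, rose 15.1-fold and ZMAT3, an RNA-binding protein gene, 13.7-fold. FDXR, a mitochondrial reductase gene, rose 8.60-fold and MDM2, a ubiquitin ligase gene, 5.95-fold. No ranking of BTG2 among them is drawn. All 4 passed edgeR's quasi-likelihood test, with adjusted p = 3.51e-18, 4.64e-23, 3.42e-21 and 3.75e-21.

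The genes nearest in profile to each member were found from the root mean square difference (RMS) of centred log2 CPM over the 6 libraries, among 11490 genes with a symbol and a mean of at least 5 CPM. For BTG2, ranks 2 and 3 were INPP5D (RMS 0.10) and SULF2 (0.11), rank 1 is not reported here, and 11 genes lay within 0.2 of it. BTG1 was nearest to SMAD5 (0.02), DSE (0.02) and RPH3AL (0.02), with 2236 genes within 0.2, so its profile was shared by many genes. The nearest to BTG3 were RGS20, SHROOM3 and BRE, and those to TOB1 were AKR1C3, B3GALT6 and AVPI1. For TOB2, ranks 1 and 3 were NSUN4 and PLOD1. CNOT7 lay by PSMD14, DNAJB11 and CSNK2A1, and CNOT8 by PSMC6, BYSL and XRCC5. Within 0.2 lay 2794 genes for BTG3, 2957 for TOB1, 3913 for TOB2, 2659 for CNOT7 and 2610 for CNOT8. The profiles of these members were thus shared by more genes than that of BTG1. Each such profile rests on 6 libraries that share their depth and scaling.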

How the data were processed

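The data are 6 libraries of RNA. For each, the authors deposited a file of whole-number read counts by Ensembl gene. The submitters' processing notes name TopHat2 (2.0.8b) and HTSeq with hg19, and also DESeq and R (3.0.2). Annotation, strand setting and counting mode were not given in the sources used here. A second deposited table by the authors adds group means, taken here as estimated counts, and RPKM, with 1 value per group and no replicates. Its RPKM served for description, and symbols, coordinates and transcript lengths came from it.

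Counts were filtered with filterByExpr (minimum count 10, minimum total 15), scaled with TMM and tested with edgeR 4.0.16's quasi-likelihood test in R 4.3.3, adjusted by Benjamini-Hochberg over 17171 genes at 0.05; entries naming no gene (reads outside genes and ambiguous reads, 7.50% to 8.24% for the latter) were left out. The code was tested on simulated data in which few genes changed. Most genes were called here, so that test does not bear on the choice of scaling. Ratios took 0.5 added counts and an exact permutation test. Other settings tried were RLE factors, library totals and upper-quartile factors, no filter and one at a mean CPM of 1, then DESeq2 1.42.0, voom in limma 3.58.1, a replicate block, and each library or pair left out.

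The members and lists were chosen with earlier results of these data known. Named are RPS19, CDKN1A, MDM2, the members, the other CCR4-NOT subunits, up to 4 genes per list with the smallest p among those called, and the 3 nearest profiles per member; some genes and a gene list under this rule are not reported here. The sample descriptions give same-numbered libraries the same date, taken here as pairing them; their deviations from group means correlated across genes at 0.055, -0.095 and 0.045. No replicate pair agreed within sampling noise (chi-square per degree of freedom 4.40 to 16.6). The test compares biological replicates of 1 cell line.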

Additional observations from a re-analysis of the deposited data

Results flagged for a closer look

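Reads outside annotated genes entered no comparison. Their mean share was 3.64% ± 0.232 (SD, n = 3) in the siOTP libraries. After siRPS19 it was 5.81% ± 0.622 (SD, n = 3), and each of these libraries lay above every control library. Their part in the levels of the BTG/TOB genes, CNOT7 and CNOT8 was not tested.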

How the results depend on the processing

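Each member was recomputed under 17 alternatives. BTG1, BTG2, BTG3, TOB2, CNOT7 and CNOT8 kept their direction and call in all 102 values. TOB1, which was not called, passed with library totals (0.30, adjusted p = 0.0449 in edgeR) and was at -0.034 with no filter. Leaving out 1 library moved TOB1 between -0.077 and 0.12, and leaving out 1 replicate number of both groups between -0.020 and 0.042. The difference in the CNOT8 to CNOT7 ratio then ran from -0.034 to 0.0071 and from -0.036 to 0.014.

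The replicate block changed no member's call and gave 6783 genes higher and 6701 lower, against 6778 and 6673. AKR1C3 passed the threshold with the block (0.08, adjusted p = 0.0417 in edgeR) and with library totals (0.37, adjusted p = 0.0104). An exact sign-flip test over the pairs cannot go below 0.25, which it gave for BTG2 to BTG1 and TOB1 to TOB2.

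Of 969 values for 57 other named genes, 942 kept their direction and call, and 18 in 4 genes near 0 changed sign. With library totals, upper-quartile factors and a filter at a mean CPM of 1, CNOT11 was at 0.27, 0.15 and 0.028, B3GALT6 at 0.26, 0.15 and 0.024, and AVPI1 at 0.25, 0.14 and 0.015. Leaving out 1 library, the ranges were -0.045 to 0.011 for CNOT11, -0.10 to 0.052 for B3GALT6, -0.089 to 0.058 for AVPI1 and -0.0086 to 0.17 for AKR1C3. Leaving out a pair, they were -0.037 to 0.0052, -0.073 to 0.013 and -0.083 to 0.020 for the first 3. Of named genes, NSUN4, CNOT4, CNOT6L and PAIP1 no longer passed with library totals (edgeR adjusted p = 0.104, 0.192, 0.138 and 0.0652). The causes were not tested.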

Other observations

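Entries related to the members in the count tables held few reads. BTG4, the family member known from oocytes, had 8 counts over the siOTP libraries and 3 over siRPS19. TOB2P1, annotated as a pseudogene of TOB2, had 23, 12 and 9 counts in siOTP replicates 1 to 3 and 53, 49 and 55 in siRPS19, a log2 fold change of 1.54 (adjusted p = 1.70e-05 in edgeR), while TOB2 fell. TOB1-AS1 was higher in siRPS19 by a log2 fold change of 0.93 (adjusted p = 0.00472 in the same test), on 33 and 77 counts per group, while TOB1 did not pass. CNOT7P1 had 13 and 10 counts over the groups, and CNOT7P2 had none. How the counting divided reads between these copies and the members is not known.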
